A study of Mus musculus with 15 samples.

Results

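The beta-adrenergic and cAMP phosphodiesterase genes, 9 of the 56980 genes in the deposited table, were followed through dystrophic skeletal muscle and heart. They were chosen by name and looked up by Ensembl identifier: the receptor Adrb1, the adenylyl cyclases Adcy5, Adcy6 and Adcy9, and the cAMP phosphodiesterases Pde3a, Pde3b, Pde4a, Pde4b and Pde4d. All 9 were found. Bulk RNA-seq was available from 15 libraries of DBA/2J-mdx mice, a dystrophic model of Duchenne muscular dystrophy. Healthy DBA/2 mice were not analysed here, so every group carries the mdx allele.

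Tibialis anterior (TA) muscle came from mice first dosed at 3 months of age, treated 2 times per week for 2 months and collected at 5 months. There were 4 vehicle libraries (2 males and 2 females) and 4 libraries from mice given the senolytic pair dasatinib and quercetin (D + Q), all 4 male. Hearts came from mice first dosed at 12 months of age, treated 2 times per week for 4 months and collected at 16 months, with 4 vehicle libraries (2 males and 2 females) and 3 D + Q libraries (labelled 2 females and 1 male). Tissue, age and length of treatment therefore differed together, and their contributions to a difference between TA and heart cannot be told apart. The labels number the samples of a group without naming the animals, so p-values measure the spread between these samples.

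Beta-adrenergic receptors bind noradrenaline and adrenaline and act through the stimulatory G protein on adenylyl cyclases, which make cAMP from ATP. cAMP activates protein kinase A (PKA), which in cardiomyocytes phosphorylates calcium channels, phospholamban and sarcomere proteins and raises the rate and force of contraction. Phosphodiesterases break cAMP down again: the PDE3 enzymes are inhibited by cGMP and are the targets of the cardiotonic drug milrinone, and the PDE4 enzymes are specific for cAMP and are the targets of rolipram. In skeletal muscle the same pathway acts on glycogen breakdown and muscle mass.

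The values were in TPM, a measure of transcript abundance that is scaled for transcript length, and they sum to 1000000 in each library, so that levels of different genes can be set side by side. TPM keeps no depth, and all precision given here comes from the spread between libraries. In bulk tissue, fewer cells of a type and less RNA per cell cannot be told apart. The tissue labels held: the summed level of 5 cardiomyocyte markers was 13880 to 18230 TPM in the hearts and 51.8 to 116 TPM in TA, and that of 6 fast skeletal muscle markers was 26700 to 32430 TPM in TA and 1.39 to 64.3 TPM in the hearts. Some heart libraries stood apart from their group. D + Q heart replicate 3 was labelled male, yet its Xist level was 47.2 TPM and the highest of its 4 Y-linked genes reached 0.0279 TPM, while the other 14 libraries matched their labels. D + Q heart replicate 2 held the 64.3 TPM of fast skeletal muscle markers. The heart groups also differed as a whole. Vehicle hearts held 863.8 to 4260 TPM of 5 atrial markers, against 381.8 to 427.4 TPM in D + Q hearts. Most of the D + Q sum was Nppa, at 373.3 to 421.4 TPM. Of the 5 markers, 4 were lower in D + Q without overlap, such as Myl7 at 94.1 to 730.1 TPM in vehicle and 3.46 to 4.54 TPM in D + Q.

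Promoter windows of the genes were read from RefSeq (GRCm38.p6; 250 bases before to 50 after each start), because a cAMP pathway gene can itself carry the cAMP response element (CRE) bound by CREB. Windows were found for 6 of the 9 genes, and Adcy6, Pde3a and Pde3b had none in the table used. The 3 shown are of genes called between the tissues: Adrb1 was higher in heart, and Pde4b and Pde4d were higher in TA. Adcy5 and Adcy9 were also called and have windows that are not shown. Each line gives the 120 bases before the start, 5′ to 3′ on the + strand, with the letters TGACG (the core of the CRE, on either strand) in capitals. The windows are chr19:56721867-56722166 for Adrb1, chr4:102421305-102421604 for the first of 4 Pde4b windows and chr13:108653927-108654226 for Pde4d.
Adrb1: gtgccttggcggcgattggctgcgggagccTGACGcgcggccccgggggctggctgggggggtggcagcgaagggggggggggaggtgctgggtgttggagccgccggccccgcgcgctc
Pde4b: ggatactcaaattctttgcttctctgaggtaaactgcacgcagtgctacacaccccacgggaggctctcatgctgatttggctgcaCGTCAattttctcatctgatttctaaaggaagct
Pde4d: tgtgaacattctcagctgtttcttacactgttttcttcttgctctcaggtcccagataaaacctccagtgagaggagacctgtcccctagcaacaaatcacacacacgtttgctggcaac
The core began 90 bases before the start in Adrb1 and 34 bases before it in the first Pde4b window. The other Pde4b windows did not hold it. These letters were not in the 1 window listed for Pde4d, a gene with 20 annotated transcripts. Over the 11 windows of the 6 genes, 4 held the core. Over all 32817 windows of the RefSeq table, 20.8% held TGACG, 1.79% held the full CRE (TGACGTCA), 7.15% an E-box (CACGTG), 0.935% a D-box (TTATGTAA) and 13.6% the letters TATAAA, all searched on both strands, with each full CRE also counted as a core. No window of the 6 genes held any of the last 4 motifs. A match is a description of letters and not evidence of binding.

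In the GRCm39 annotation (GENCODE M39) the 9 genes lie on 8 chromosomes, with Adcy5 and Adcy9 both on chromosome 16. The loci differed in span, from 10915 bases for Adrb1 (chr19:56710631-56721545, + strand) to 1506016 bases for Pde4d (chr13:108586482-110092497, + strand). Pde3a, at chr6:141194888-141453174 on the + strand, spans 258287 bases and overlaps 3 other annotated genes of the table, whose highest levels in any library were 1.59 to 2.89 TPM. TPM here is per gene, so the many PDE4 isoforms, which differ in their starts, were not separated.

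**Figure D1:**
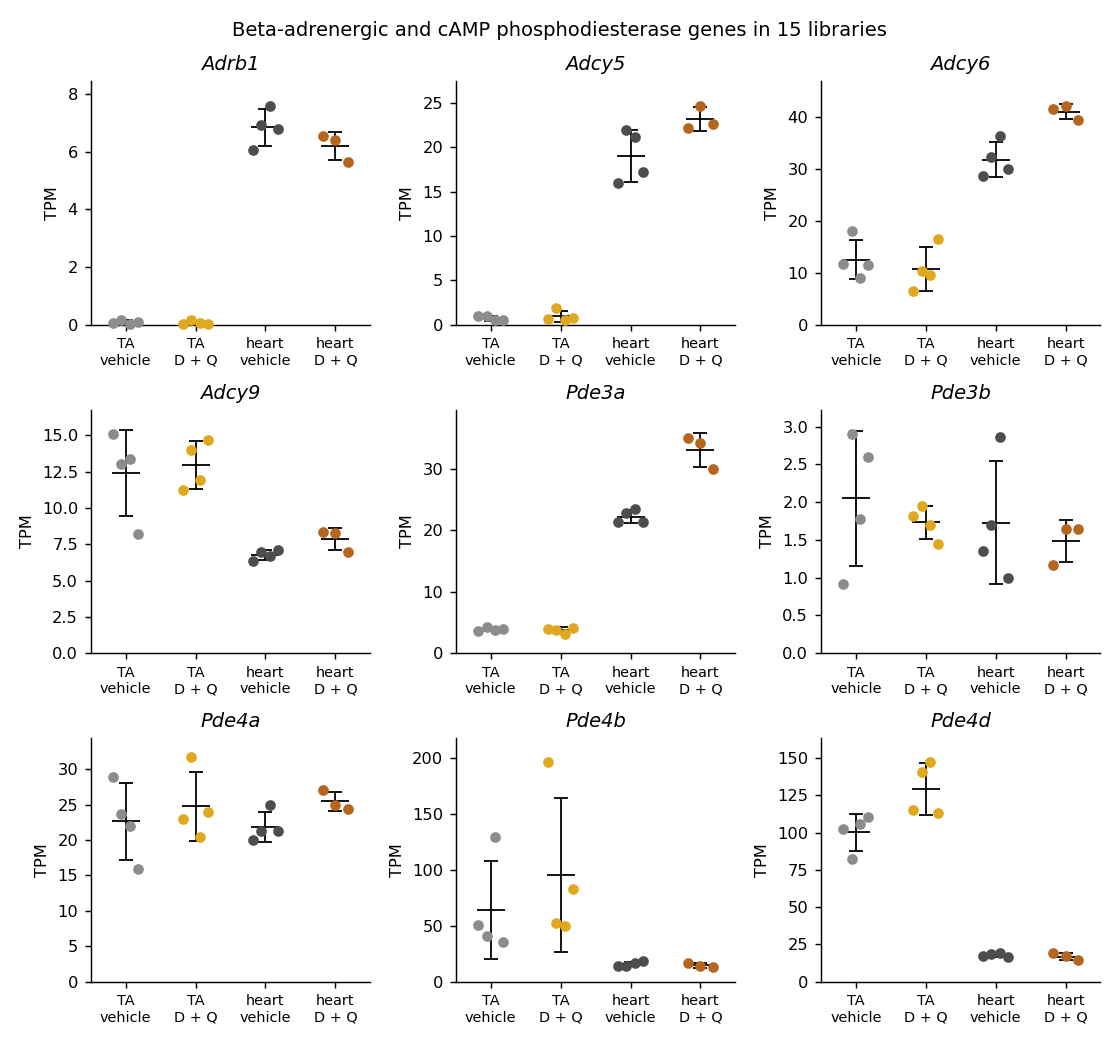
TPM of each of the 9 genes (y axes, each from 0) in the 4 groups (x axes). Each point is 1 library, and the horizontal line and bar give the mean and SD. Adrb1, Adcy5, Adcy6 and Pde3a were higher in both heart groups than in both TA groups, and Pde4b and Pde4d were higher in every TA library than in every heart, with 129 TPM and 197 TPM of Pde4b in single TA libraries.

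The first comparison asked how the pathway differed between vehicle TA and vehicle heart. The receptor, both major cardiac cyclases and Pde3a were lower in TA, and Adcy9, Pde4b and Pde4d were higher in TA. Of the 9 genes, 7 were called, meaning an adjusted p (limma, Benjamini-Hochberg over 16893 genes) under 0.05 and an absolute log2 difference above 0.5. Of all genes tested, 24% were called higher in TA and 14.7% lower, so calls were common in this comparison. The median log2 difference over all genes was 0.16 and moved by 0.17 when the libraries were rescaled by median-of-ratios factors. The 7 calls were the same in number under each of the 17 alternative settings run, including leaving out each library in turn.

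Adrb1 encodes the beta1 receptor, the main beta-adrenergic receptor of the heart. It measured 6.05, 6.94, 7.59 and 6.77 TPM in vehicle heart replicates 1 to 4 and 0.0589, 0.174, 0.0318 and 0.105 TPM in vehicle TA replicates 1 to 4. All TA libraries were below all heart libraries, with TA values under the 0.5 TPM used to filter low genes. The log2 difference was -3.63 (SE 0.15, limma adjusted p = 1.3e-08), on the log2(TPM + 0.5) scale, which understates the change of a gene this low. Adrb3, the beta3 receptor of adipocytes, reached no more than 0.419 TPM in any library and was not tested.

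Adcy5 and Adcy6 encode the calcium-inhibited cyclases that predominate in cardiomyocytes. Adcy5 measured 15.9, 21.9, 21.1 and 17.2 TPM in vehicle heart and 0.942, 1.04, 0.522 and 0.515 TPM in vehicle TA. Adcy6 measured 28.6, 32.3, 36.2 and 30.0 TPM in vehicle heart and 11.7, 18.0, 9.08 and 11.5 TPM in vehicle TA. Neither gene's groups overlapped, and the gap was wider for Adcy5 (log2 difference -3.97, SE 0.19, limma adjusted p = 3.4e-08) than for Adcy6 (-1.34, SE 0.18, limma adjusted p = 0.000148). Adcy9, a widely expressed cyclase, ran the other way, with 8.22 to 15.1 TPM in vehicle TA and 6.35 to 7.13 TPM in vehicle heart (log2 difference 0.80, SE 0.17, limma adjusted p = 0.00362).

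The make-up of the cyclases differed accordingly. Of the summed TPM of the 3 genes, Adcy6 held 52.9% to 56.5% and Adcy5 31.3% to 35.8% in vehicle heart, while in vehicle TA Adcy5 held 2.27% to 3.40% and Adcy6 and Adcy9 shared the rest. The sum was 50.9 to 64.1 TPM in vehicle heart and 20.2 to 32.1 TPM in vehicle TA. Adcy2, a calcium-independent cyclase outside the 9 genes, was at 10.9 to 15.2 TPM in vehicle TA and at 0.125 to 0.198 TPM in vehicle heart, the call with the smallest adjusted p among pathway genes higher in TA (log2 difference 4.37, limma adjusted p = 3.4e-09).

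**Figure D2:**
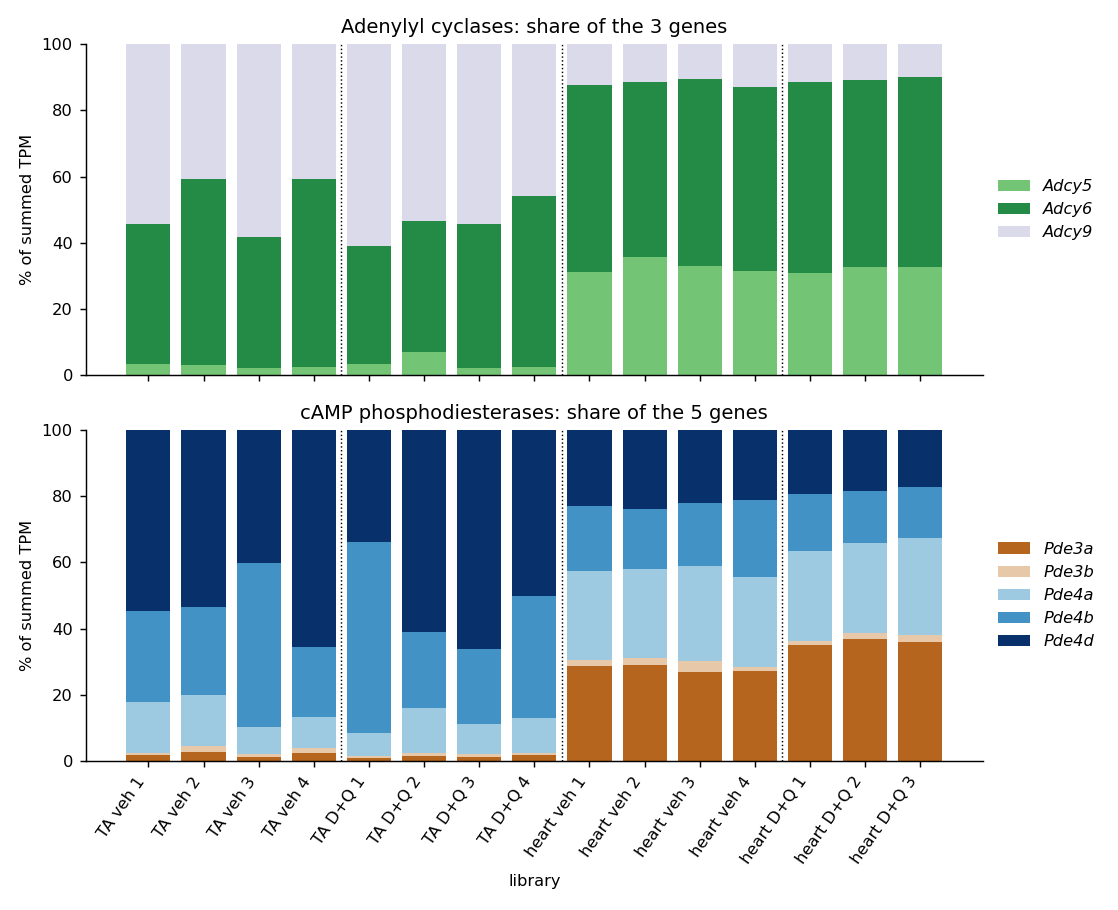
Share of each gene in the summed TPM (y axis, percent) of the 3 cyclases (top) and the 5 phosphodiesterases (bottom) in each of the 15 libraries (x axis), with dotted lines between groups. In the hearts Adcy5 and Adcy6 held most of the cyclase total and Pde3a held 26.9% to 37.0% of the phosphodiesterase total, whereas in TA Pde4b and Pde4d together held most of the latter.

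Pde3a, the main cardiac PDE3, measured 21.3, 22.9, 23.5 and 21.3 TPM in vehicle heart and 3.60, 4.26, 3.72 and 4.00 TPM in vehicle TA. The groups were far apart compared with their spread (log2 difference -2.37, SE 0.11, limma adjusted p = 3.4e-08). Pde3b, the PDE3 known from adipocytes and liver, was low in both, at 0.912 to 2.90 TPM in vehicle TA and 0.997 to 2.87 TPM in vehicle heart, and its difference of 0.18 had a 95% interval from -0.51 to 0.88. Pde3a thus made up 89.1% to 95.5% of the PDE3 total in vehicle heart and 59.4% to 79.8% in vehicle TA.

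The PDE4 genes went the other way. Pde4d, whose enzyme is found in complexes with the beta receptors and the ryanodine receptor, measured 102, 82.3, 106 and 110 TPM in vehicle TA and 17.1, 18.8, 19.2 and 16.6 TPM in vehicle heart. Every TA library exceeded every heart library (log2 difference 2.44, SE 0.12, limma adjusted p = 3.6e-08). Pde4b, a PDE4 prominent in leukocytes and brain and present in heart, measured 51.2, 41.2, 129 and 35.3 TPM in vehicle TA and 14.4, 14.1, 16.6 and 18.2 TPM in vehicle heart. Its TA libraries were all above the hearts but far more spread out, with replicate 3 at 129 TPM (log2 difference 1.79, SE 0.33, limma adjusted p = 0.0012). Without that library the difference was 1.39 (limma adjusted p = 5.5e-05).

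Leukocyte markers also differed between the tissues. The summed level of 6 of them was 268.4 to 480.9 TPM in vehicle TA and 138.8 to 236.4 TPM in vehicle heart. All 6 were called higher in TA, beside 24% of all genes tested. The part of the leukocyte markers in the Pde4b difference was not tested. Pde4a did not pass the test, with 15.9 to 28.9 TPM in vehicle TA and 20.0 to 24.9 TPM in vehicle heart and a 95% interval of the log2 difference from -0.35 to 0.39. Its estimate of 0.02 became -0.17 with median-of-ratios scaling. The summed PDE4 level was 147 to 257.5 TPM in vehicle TA and 51.5 to 60.8 TPM in vehicle heart.

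The order of the 9 genes by mean level differed between the tissues as well. In vehicle TA it ran from Pde4d (100.2 TPM ± 12.4, SD, n = 4) and Pde4b (64.3 TPM ± 43.9), whose ranges overlapped, through Pde4a, Adcy6 and Adcy9 to Pde3a, Pde3b, Adcy5 and Adrb1 (0.0925 TPM ± 0.0622). Among these neighbours the ranges were apart only between Pde4b and Pde4a, Adcy9 and Pde3a, Pde3a and Pde3b, and Adcy5 and Adrb1. In vehicle heart Adcy6 led (31.8 TPM ± 3.33, n = 4) and stood apart from the next gene. Pde3a, Pde4a, Adcy5, Pde4d and Pde4b followed between 22.2 and 15.8 TPM, each overlapping the next. Adrb1 (6.84 TPM ± 0.632) and Adcy9 (6.79 TPM ± 0.336) overlapped each other, and Pde3b was the lowest (1.73 TPM ± 0.811).

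The wider pathway was taken from 7 lists of 76 other genes. Of these, 71 were tested between vehicle TA and vehicle heart. Of the 71, 19 were called higher and 23 lower in TA, beside 24% and 14.7% of all genes tested. The 71 genes had a median log2 difference of -0.05 beside 0.16 over all genes. Of 10 PKA substrates, 7 were lower in TA, among them Pln (phospholamban, the brake on the sarcoplasmic calcium pump), at 2696 to 2923 TPM in vehicle heart and 2.79 to 5.64 TPM in vehicle TA, and the cardiac sarcomere genes Tnni3 and Mybpc3. Tnni3 and Ryr2 of this list are also among the 5 cardiomyocyte markers. The list was made largely of cardiac forms and left out their skeletal muscle counterparts. Its lower level in TA therefore follows how it was chosen and does not describe PKA substrates as a class. Of 10 other receptors and G proteins, 9 were tested, and 2 were higher, among them Gnas, the stimulatory G protein, and 5 lower, among them Chrm2, the muscarinic receptor that opposes beta-adrenergic drive. Of 14 cAMP effectors 4 were higher and 5 lower. Pkia, an inhibitor peptide of PKA, was at 175.6 to 248.7 TPM in vehicle TA and 50.1 to 53.3 TPM in vehicle heart (log2 difference 1.99, limma adjusted p = 2.6e-07). Prkaca, the main catalytic subunit of PKA, was at 60.0 to 78.2 TPM in vehicle TA and 85.0 to 100.8 TPM in vehicle heart, a log2 difference of -0.46 that lay inside the fold threshold.

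**Figure D3:**
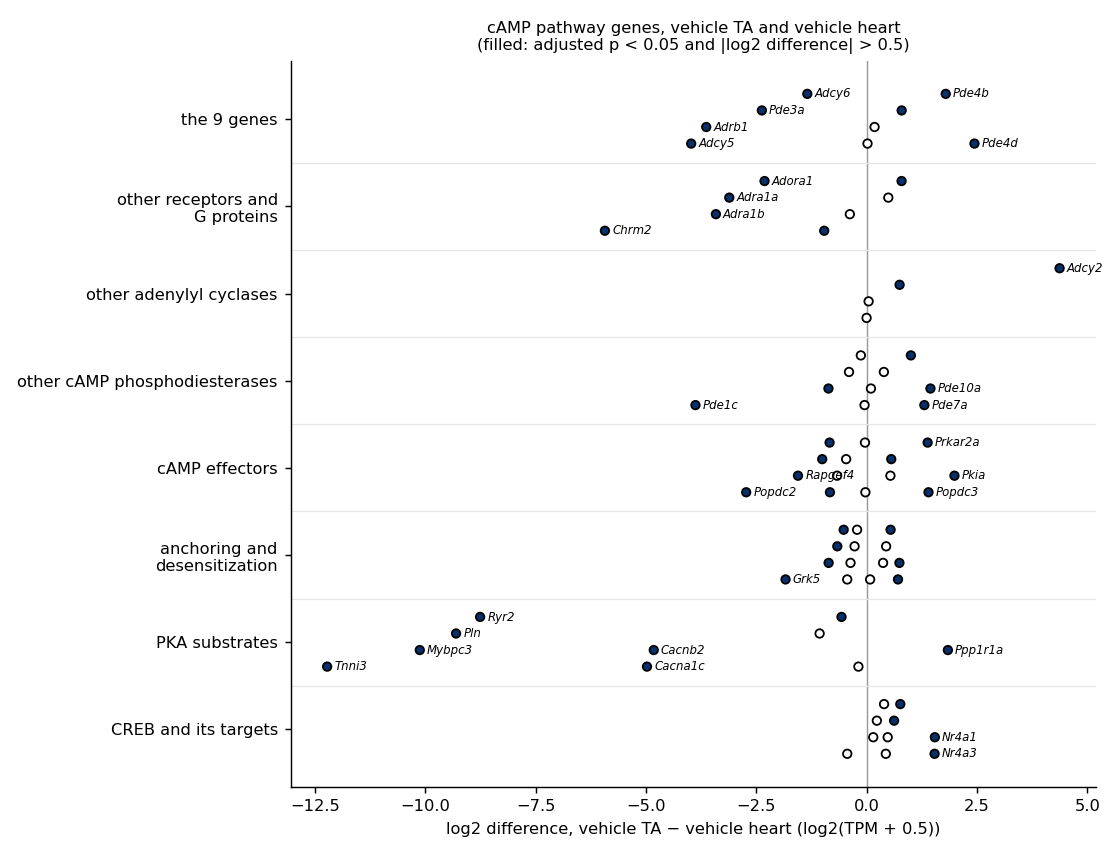
Log2 difference between vehicle TA and vehicle heart (x axis, log2(TPM + 0.5); positive is higher in TA) for the 9 genes and 70 of the 71 genes tested from 7 pathway lists (rows). Each point is 1 gene, filled where it was called, with names for differences beyond 1.3. Of the 9 genes 4 lay to the left as called and 3 to the right. The PKA substrates, a list made largely of cardiac genes, lay furthest to the left.

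D + Q TA and D + Q heart differed in the same genes. Of the 9, the 7 named above were called again, 4 lower and 3 higher in TA, where 15.6% of 16381 genes were called lower and 21.2% higher (limma, no covariate, with a median log2 difference over all genes of 0.10). The log2 differences were -3.56 for Adrb1, -4.10 for Adcy5, -1.96 for Adcy6, -2.99 for Pde3a, 0.69 for Adcy9, 2.42 for Pde4b and 2.90 for Pde4d. The 3 D + Q hearts held 5.65 to 6.55 TPM of Adrb1 and the 4 D + Q TA muscles 0.0216 to 0.171 TPM. With any 1 of the 3 D + Q hearts left out, Adrb1 no longer passed the filter on low values and the other 6 genes were called. The intervals for Pde3b (-0.22 to 0.56) and Pde4a (-0.40 to 0.28) included 0. All D + Q TA mice were male, so tissue and sex overlapped here. With labelled sex in the model 7 genes were called. That model separated sex from tissue only through D + Q heart replicate 3, labelled male but with Xist at 47.2 TPM. By expression all D + Q hearts were female, so tissue and sex cannot be told apart in this comparison.

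The next comparison asked whether D + Q changed these genes in TA. No change passed the test. Of 16298 genes tested with 1 surrogate variable in the model, 0 (0%) were called, and 8 of the 9 genes entered that test, since Adrb1 fell below the filter. The study itself, with DESeq2 on counts, 1 surrogate variable and the same thresholds, did report genes up and down in TA. The 0 here therefore belongs to limma on TPM and does not show that D + Q had no effect. All 8 had an adjusted p (limma) of 0.999. At an unadjusted p under 0.05 there were 488 genes, 2.99% of those tested, and 1 of the 8.

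That gene was Pde4d. It measured 115, 141, 147.5 and 113 TPM in D + Q replicates 1 to 4 beside 102, 82.3, 106 and 110 TPM in vehicle, so all D + Q libraries lay above all vehicle libraries, with the closest pair at 113 and 110 TPM. The log2 difference was 0.41 (SE 0.14, 95% interval 0.11 to 0.71, unadjusted p = 0.0126, limma). Over all genes tested, 0.264% had every D + Q library above every vehicle library and 1.25% had every one below. The difference was 0.30 to 0.50 over the alternatives run and its adjusted p did not fall below 0.616 in any of them. With males only, which leaves 2 vehicle libraries, it was 0.30.

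Pde4b varied most. It measured 197, 52.7, 50.4 and 83.0 TPM in D + Q replicates 1 to 4, beside 51.2, 41.2, 129 and 35.3 TPM in vehicle, and the groups overlapped. The 3 highest libraries, D + Q replicate 1, vehicle replicate 3 and D + Q replicate 4, were also the 3 with the highest surrogate variable (0.703, 0.295 and 0.228, against -0.419 to -0.132 in the other 5). The surrogate variable was estimated from the same table, so this is a description. The log2 difference was 0.14 (95% interval -0.26 to 0.55) with the surrogate variable, 0.54 without a covariate and -0.004 with labelled sex in its place, and it was 0.95 when D + Q replicate 3 was left out. The value therefore depended on the model, and no setting made it pass the test.

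**Figure D4:**
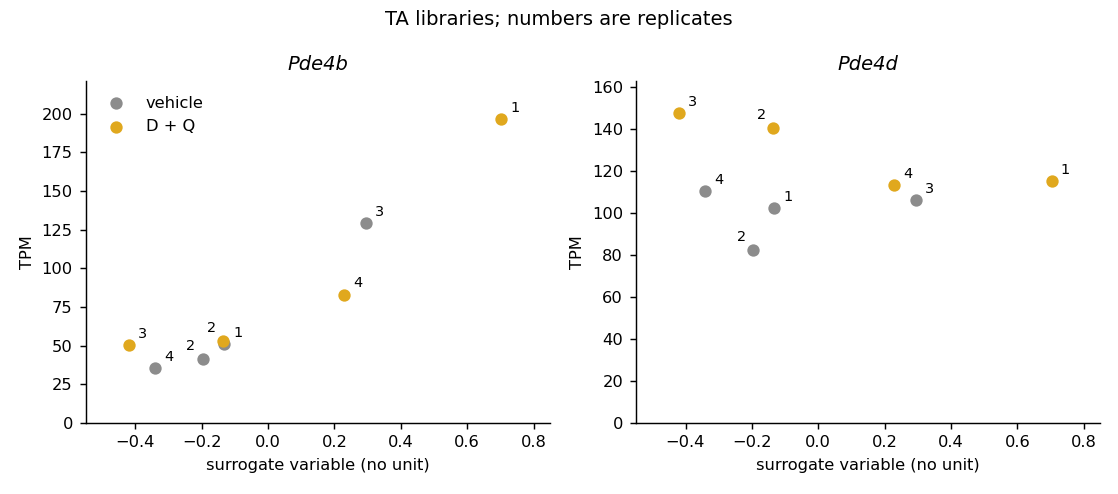
TPM of Pde4b (left) and Pde4d (right) on the y axes against the surrogate variable of the TA model (x axis, no unit). Each point is 1 TA library, numbered by replicate, with vehicle in gray and D + Q in yellow. Pde4b was highest in the 3 libraries with a surrogate variable above 0, from both groups, and Pde4d was higher in each D + Q library than in each vehicle library.

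The other 6 genes tested in TA overlapped between the groups. Adcy6, for example, measured 6.52, 10.4, 9.50 and 16.5 TPM in D + Q and 11.7, 18.0, 9.08 and 11.5 TPM in vehicle (log2 difference -0.16, 95% interval -0.76 to 0.44). Pde3a was at 3.12 to 4.18 TPM in D + Q and 3.60 to 4.26 TPM in vehicle (-0.08, 95% interval -0.45 to 0.29), Adcy5 differed by 0.20 (-0.48 to 0.89), Adcy9 by 0.06 (-0.38 to 0.51), Pde4a by 0.12 (-0.33 to 0.58) and Pde3b by -0.09 (-0.72 to 0.55). Except for that of Pde3a, these intervals reached past the fold threshold of 0.5, so changes of that size are not excluded. All D + Q TA mice were male, and with labelled sex in place of the surrogate variable the estimate changed sign for Adcy9 (-0.136), Pde3a (0.021), Pde3b (0.308) and Pde4a (-0.047). Adrb1 was at 0.0216 to 0.171 TPM in D + Q TA and 0.0318 to 0.174 TPM in vehicle TA.

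Of the 76 other pathway genes 65 were tested in TA and 0 were called, with a median log2 difference of -0.08 beside -0.07 over all genes. At an unadjusted p under 0.05 there were 2, beside 2.99% of all genes tested. Crem, a cAMP-responsive transcription factor, was at 40.3, 19.6, 17.4 and 19.7 TPM in D + Q and 12.1, 11.4, 20.3 and 12.9 TPM in vehicle, and Crtc3, a CREB coactivator, was at 13.2 to 15.3 TPM in D + Q and 17.6 to 23.2 TPM in vehicle. Both were chosen once their values were known, and both had an adjusted p (limma) of 0.999.

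In heart, D + Q was compared with vehicle with labelled sex in the model. Pde3a was higher in the D + Q hearts, and it was the one gene of the 9 that passed. It measured 35.0, 34.2 and 29.9 TPM in D + Q replicates 1 to 3, beside 21.3, 22.9, 23.5 and 21.3 TPM in vehicle, so every D + Q heart lay above every vehicle heart. The log2 fold change was 0.53 (SE 0.06, 95% interval 0.40 to 0.67, limma adjusted p = 0.0284). Over 16132 genes, 0.105% were called higher and 0.211% lower, and 9.63% had every D + Q library above every vehicle library and 5.57% every one below. Pde3a was among the genes the study itself named from these hearts, so its selection was not independent of these samples.

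Under the alternatives the size of the Pde3a difference moved little, apart from the atrial covariate below, and its call was often lost. With each library left out in turn the log2 fold change was 0.52 to 0.57 and the adjusted p (limma) 0.0369 to 0.142. It stayed under 0.05 without vehicle replicate 3 and was above it without vehicle replicates 1, 2 or 4 or D + Q replicates 1, 2 or 3. Without D + Q replicate 3, whose label and expression disagreed on sex, the fold change was 0.57 (adjusted p = 0.142), and without D + Q replicate 2, with its skeletal muscle transcripts, it was 0.53 (adjusted p = 0.101). With sex read from expression it was 0.50 (adjusted p = 0.114).

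Other measures moved with treatment in the same hearts. All 5 atrial markers had estimates below 0 in D + Q and 3 were called lower, beside 0.211% of all genes tested. Such a marker is Myl7, the atrial myosin light chain, at 94.1, 730.1, 541 and 282.5 TPM in vehicle and 4.00, 4.54 and 3.46 TPM in D + Q. All 5 cardiomyocyte markers had estimates above 0 (0 called, 4 with no overlap), with sums of 13880 to 15250 TPM in vehicle and 17100 to 18230 TPM in D + Q, a median log2 fold change of 0.26. The 5 clock genes of the Bmal1 phase summed to 19.0 to 26.6 TPM in vehicle and 38.3 to 46.4 TPM in D + Q, and 10 clock genes of the opposite phase, 7 of them called lower, to 271.9 to 354.6 TPM and 128.4 to 155.0 TPM. The 5 fibroblast markers had estimates below 0 (0 called, 2 with no overlap). They summed to 520.1 to 753.2 TPM in vehicle and 422.3 to 491.7 TPM in D + Q, and Dcn made up most of each sum. With the mean log2 level of the atrial markers in the model in place of sex, the Pde3a fold change was 0.86 with an adjusted p (limma) of 0.836, and none of 16132 genes was called. The atrial, clock, cardiomyocyte and fibroblast sums of the groups did not overlap. Treatment and these differences can therefore not be told apart for Pde3a. The part of the cardiomyocyte, fibroblast and clock genes in the Pde3a result was not tested.

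The 3 cyclases had estimates above 0 and did not pass the test. Adcy6 measured 41.5, 42.2 and 39.4 TPM in D + Q and 28.6, 32.3, 36.2 and 30.0 TPM in vehicle, with no overlap (log2 fold change 0.34, SE 0.07, limma adjusted p = 0.0977). Adcy5 measured 22.2, 24.7 and 22.6 TPM in D + Q and 15.9, 21.9, 21.1 and 17.2 TPM in vehicle, with the lowest D + Q heart just above the highest vehicle heart (0.25, SE 0.09, limma adjusted p = 0.219). Adcy9 was at 6.95 to 8.33 TPM in D + Q and 6.35 to 7.13 TPM in vehicle (0.18, 95% interval -0.03 to 0.38). The shares of the 3 cyclases were alike in the groups, with Adcy6 at 56.2% to 57.6% of their total in D + Q and 52.9% to 56.5% in vehicle.

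The receptor and the other phosphodiesterases overlapped between the heart groups. Adrb1 measured 6.55, 6.40 and 5.65 TPM in D + Q and 6.05, 6.94, 7.59 and 6.77 TPM in vehicle (log2 fold change -0.16, 95% interval -0.36 to 0.04). Pde4a was at 24.3 to 27.0 TPM in D + Q and 20.0 to 24.9 TPM in vehicle (0.20, SE 0.08, limma adjusted p = 0.252). Pde4b (-0.10, 95% interval -0.40 to 0.20), Pde4d (-0.13, -0.31 to 0.04) and Pde3b (-0.17, -0.76 to 0.43) had estimates below 0 with intervals that included it. In all, 4 of the 9 genes had an unadjusted p under 0.05, against 17.6% of all genes tested, and all 4 were higher in D + Q. The median log2 fold change was 0.17 over the 9 genes, -0.0025 over all genes and 0.26 over the 5 cardiomyocyte markers of the same hearts.

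The balance among the phosphodiesterases differed with Pde3a. It held 28.7%, 29.0%, 26.9% and 27.2% of the summed TPM of the 5 genes in vehicle replicates 1 to 4 and 35.2%, 37.0% and 36.0% in D + Q replicates 1 to 3. The sum itself was 74.2 to 87.1 TPM in vehicle and 83.1 to 99.4 TPM in D + Q. Pde4d held 21.2% to 23.9% of it in vehicle and 17.2% to 19.3% in D + Q, although its level overlapped. These shares come from the same contrast as the Pde3a test and were not tested again.

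**Figure D5:**
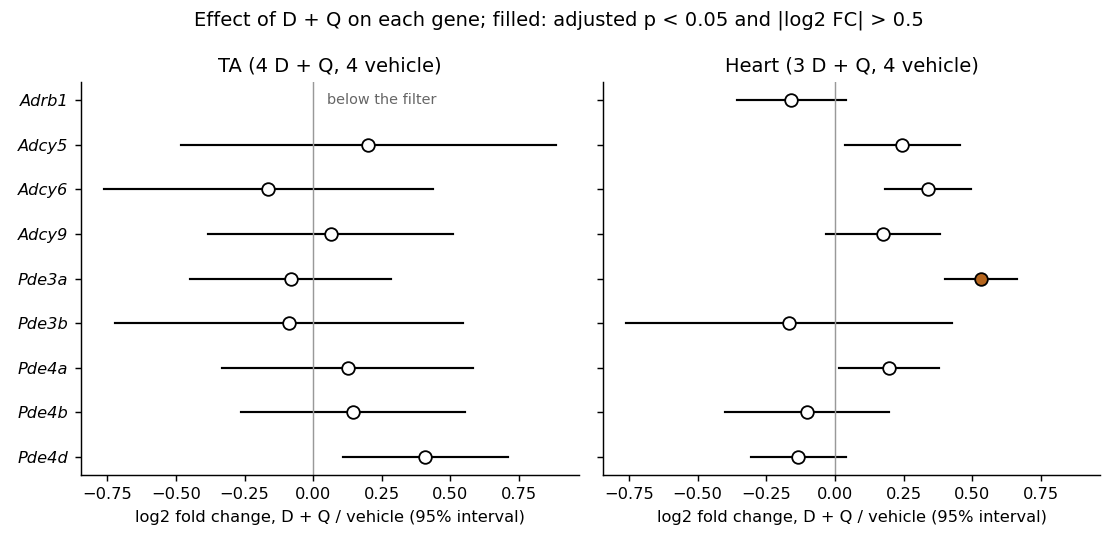
Log2 fold change of D + Q over vehicle (x axis) with its 95% interval for each gene (rows) in TA (left) and heart (right); filled points were called. Pde3a in heart, at 0.53, was the one filled point, and in TA the interval of Pde4d alone lay above 0.

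Of the 76 other pathway genes 70 were tested in heart. None was called. At an unadjusted p under 0.05, which 17.6% of all genes tested reached, 14 were higher and 4 lower, and the median log2 fold change was 0.05 beside -0.0025 over all genes. The PKA substrates held 6 of the 14 (Pln, Rrad, Fxyd1, Tnni3, Cacna1c and Mybpc3), out of 10 tested, with a median log2 fold change of 0.23. Of the 5 cardiomyocyte markers in the same hearts 4 were higher at that threshold, with a median of 0.26, and Tnni3 and Ryr2 are in both lists. Pln measured 3632, 3691 and 3520 TPM in D + Q and 2823, 2696, 2923 and 2751 TPM in vehicle, with no overlap (log2 fold change 0.36, limma adjusted p = 0.0812). Rrad, a GTPase that restrains the L-type calcium channel, measured 87.3, 106.5 and 89.1 TPM in D + Q and 69.3, 66.4, 49.4 and 58.7 TPM in vehicle (0.64, limma adjusted p = 0.09995). Adcy7, a cyclase of blood cells, was lower without overlap, at 2.46, 2.41 and 2.44 TPM in D + Q and 3.53, 4.14, 3.48 and 3.38 TPM in vehicle (-0.50, limma adjusted p = 0.103). Except for Pln, these genes were chosen once their values were known. Gnas (0.07), Prkaca (0.12) and Grk2, the kinase that desensitizes beta receptors (0.05), did not pass the test.

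The difference between the tissues in the effect of D + Q was tested as an interaction over all 15 libraries with labelled sex. Of 17868 genes, 11 were called (0.0616%) and none was among the 9 or among the 71 other pathway genes tested. At an unadjusted p under 0.05 there were 4.22% of all genes and 2 of the 9. Pde3a had a heart effect larger than its TA effect by 0.51 (SE 0.15, limma adjusted p = 0.745), and for Pde4d the heart effect minus the TA effect was -0.52 (SE 0.20, limma adjusted p = 1). That Pde3a passed in heart and not in TA was therefore not shown to be a difference between the tissues. The TA and heart comparisons each share their vehicle and D + Q libraries with the tissue comparisons above.

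For each gene the 2 genes with the most similar pattern over the 15 libraries were found by Pearson's r of log2(TPM + 0.5) among 17868 genes. These values are descriptions, and with 8 TA and 7 heart libraries they mostly follow the tissue. The nearest to Adrb1 were Kcnj5 (r = 0.998) and Gata4 (r = 0.998), to Pde3a Fstl4 (r = 0.998) and Trabd2b (r = 0.997), and to Adcy5 Paqr9 and Acot13 (both r = 0.996). The nearest to Pde4d were Mss51 (r = 0.993) and Adcy2 (r = 0.992), and to Pde4b Vmp1 (r = 0.981) and Ackr1 (r = 0.979). Adcy6 was nearest to Mdp1 and Cbx2 (r = 0.978 and 0.976) and Adcy9 to Vcp and Mkln1 (r = 0.985 and 0.983). Pde4a (Ndufs3 and Lynx1, both r = 0.899) and Pde3b (Slc5a3 and Tent5a, r = 0.774 and 0.768), the genes that were not called between the tissues, had the lowest values.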

How the data were processed

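Bulk RNA-seq of TA muscle and heart was analysed from 15 libraries. Per the labels and the study's methods, reads were trimmed by the authors (Trim Galore 0.6.10) and quantified with Salmon 1.10.3 on GRCm39, with tximport for the summary by gene. The deposited values are TPM of 56980 genes. TPM carries neither counts nor depth, so the study's DESeq2 test was not run and no counting error can be given. That test called genes in TA, and it called more genes in heart than were called here. Gene symbols came from GENCODE M39 (56236 identifiers named).

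Genes reaching 0.5 TPM in 3 or more libraries of a comparison were kept, and log2(TPM + 0.5) was fitted with limma 3.58.1 (lmFit, eBayes with a trend) in R 4.3.3, with Benjamini-Hochberg adjustment over all genes tested. A call needed an adjusted p under 0.05 and an absolute log2 change above 0.5, the thresholds of the study. TA was fitted with 1 surrogate variable, from an iteratively re-weighted procedure of 5 rounds written out for these values, heart and the interaction with labelled sex, and tissue comparisons with no covariate. The code was tested on simulated data.

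The 9 genes, the 7 pathway lists and the marker lists were chosen with earlier results of these data known. Besides the 9 genes, the rule for named genes took at most 5 called pathway genes per comparison and direction with the smallest adjusted p and no overlap, and Adrb3, Gnas, Prkaca, Pln and Grk2, with 1 further gene that is not reported here. Replicate numbers are shared between groups, but the mean correlation of same-numbered deviations was between -0.122 and 0.014, so the numbers were not taken to pair animals. Alternatives were pseudocounts of 0.1 and 1, a filter at 1 TPM or none, median-of-ratios scaling, no trend, no minimum fold change, other covariates, a replicate block and leaving out each library in turn.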

Additional observations from a re-analysis of the deposited data

Results flagged for a closer look

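Pde4b in vehicle TA replicate 3, at 129.4 TPM, lay far from the other 3 vehicle TA libraries (51.2, 41.2 and 35.3 TPM). Its gap to the nearest of them was 0.832 of the range of the group, just over the critical value of Dixon's test for 4 samples. It was 1 of 27 groups of values examined, and chance marks about 1 in 20. That library also had a surrogate variable of 0.295, below that of D + Q replicate 1 alone (0.703, with 197 TPM of Pde4b), and the relation was not tested.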

How the results depend on the processing

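Of 779 alternative values of the log2 changes of the 9 genes, 726 kept their direction and side of the threshold, 11 fell short of it and 42 changed sign. The 11 were all of Pde3a in heart, and no value that changed sign had been called. The count of the 9 genes called stayed at 0 in TA, 7 in vehicle TA against heart and 0 for the interaction, and at 7 in D + Q TA against heart except for 6 when a D + Q heart was left out. In heart it went from 1 to 0 with no filter on low values (Pde3a adjusted p = 0.0693), no trend (0.0849), a replicate block (0.149), sex read from expression (0.114) and the atrial score (0.836), and ranged from 0 to 1 with single libraries left out. The replicate block changed no other call of the 9 genes. Over all genes the heart count of 51 became 0 with no filter or with the atrial score, 13 without the trend, 4 with the block, 25 with sex from expression and 0 to 136 with libraries left out. The TA count of 0 reached 2 with a library left out, and the interaction count of 11 became 6 with no filter, 5 with the block and 5 to 14 with libraries left out. Signs changed in TA with labelled sex, and by the same values in males only, for Adcy9 (-0.136), Pde3a (0.021), Pde3b (0.308), Pde4a (-0.047) and Pde4b (-0.004). They changed in heart with the atrial score for Adrb1 (0.463), Pde3b (1.003), Pde4b (0.306) and Pde4d (0.305). Pde4a became -0.168 between vehicle tissues with median-of-ratios scaling and 0.007 between D + Q tissues with labelled sex, and the interaction became -0.036 for Adcy5 at a pseudocount of 0.1 and 0.010 for Pde3b with no covariate. With single libraries left out the TA changes ranged from -0.341 to 0.063 for Pde3b, -0.083 to 0.163 for Adcy9, -0.042 to 0.271 for Pde4a and -0.120 to 0.413 for Adcy5. The heart changes ranged from -0.524 to 0.074 for Pde3b and -0.195 to 0.036 for Pde4b. Pde4a ranged from -0.106 to 0.177 between vehicle tissues and -0.178 to 0.029 between D + Q tissues. The interaction ranged from -0.163 to 0.280 for Adcy5, -0.083 to 0.243 for Pde4a and -0.971 to 0.039 for Pde4b. The causes were not tested. TPM holds no depth, so what depth limits is unknown.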
